A study of Nannochloropsis oceanica with 12 samples.

Results

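Messenger RNA levels of cultures kept for 12 h or 24 h in fresh medium are described here for 93 genes of the alga *Nannochloropsis oceanica* IMET1, out of 9756 genes measured. These genes were chosen for a level at least 2-fold higher at 24 h than at 12 h. This held both in the wild type (WT) and in the knockdown line M2. The difference between the lines was also bounded, at 12 h only on the side where M2 is lower. The measured values were FPKM, sequenced fragments scaled to the transcript's length and to the mapped total of the library. The genes were selected on L, the log2 of the mean FPKM of a group plus 1. A member had L at least 1 higher at 24 h than at 12 h in each line, M2 minus WT above -0.7 at 12 h and between -0.5 and 0.3 at 24 h, and a mean of at least 5 FPKM in any group. Because these values chose the genes, the time changes and line differences of the 93 genes are a description, and no test was made on them.

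*Nannochloropsis oceanica* is a unicellular marine alga that lives by photosynthesis and is known for storing oil as triacylglycerol. Carbonic anhydrases interconvert CO2 and bicarbonate, and algae use them to supply CO2 to the carbon-fixing enzyme Rubisco. After transfer to fresh medium a culture resumes growth, and the level of many transcripts changes with the age of the culture. FPKM measures a share of the messenger RNA, so a higher value of a gene cannot be told apart from a loss of other transcripts.

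The study compared WT with M2, an RNA interference line for the carbonic anhydrase CA2, made in the same strain. Per the labels, both lines grew in seawater medium in continuous light under 5% CO2, equal numbers of cells were moved to fresh medium, and 3 biological replicates per line were taken at 12 h and at 24 h. M2 is a single knockdown line with no control line besides WT, so lowered CA2 and other differences between the lines cannot be told apart, and which gene ID is CA2 is not stated, so the knockdown itself was not checked. The source is labelled as total RNA of whole cells, but the labels call the RNA nuclear in the subtype field, and which holds is not settled here.

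Of the 12 labelled libraries, 11 were distinct and 10 entered the choice of the genes. The last M2 12 h column equalled 0.723 times replicate 1, within 0.1%, for 9646 of 9647 genes above 0 and for all 93 genes described here, so both were counted as 1 library and M2 at 12 h had 2. WT 12 h replicate 3 was unlike its group, with a correlation of log2(FPKM + 1) across genes of 0.715 to the replicates of its group, against 0.992 to 0.997 for other replicate pairs, and the choice left it out. Its values for the 93 genes are given separately. Depth in reads is unknown. FPKM sums were 606886 to 617319 in the 10 libraries and 780704 in WT 12 h replicate 3.

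A change of at least 1 in L with time was found in 379 genes in WT, in 818 genes in M2 and in 223 genes in both, of which 213 reached 5 FPKM in any group. Of those 213, the bounds on the line difference removed 68 for a low level in M2 at 12 h, 62 for a low level in M2 at 24 h and 24 for a high level in M2 at 24 h, with 34 of them missing both a 12 h and a 24 h bound. The 93 genes that remained were 1.00% of the 9271 genes with at least 5 FPKM in any group. Many lay close to the threshold. In 27 of them the smaller of the 2 time changes was under 1.1, and 40 genes that met every other bound had a smaller change between 0.9 and 1. The member closest to the threshold had a time change of 1.002 in WT and 1.68 in M2, with WT means of 36.5 and 74.0 FPKM. The gene just outside had changes of 0.996 in WT and 1.48 in M2, with WT means of 7.39 and 15.7 FPKM.

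None of the 93 IDs (0) matched the 160 organelle genes of the reference table used here, and the files pair no ID of a member with a gene name. No product, pathway or sequence can therefore be attached to these genes, and they are called by their scaffold and gene number.

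At 12 h the 93 genes were a minor part of the transcriptome and at 24 h a larger one. They held 0.799% to 0.812% of the FPKM sum of the WT 12 h replicates 1 and 2, and 0.631% to 0.639% in M2 at 12 h. At 24 h the shares were 1.97% in each WT library and 1.77% to 1.80% in M2. The median level over the 93 genes was 9.26 FPKM in WT and 7.39 in M2 at 12 h, and 23.7 in WT and 21.4 in M2 at 24 h. Over all 9271 genes of at least 5 FPKM the median stayed between 25.2 and 26.5 FPKM in the 4 groups. The typical gene of this set was thus below the transcriptome's median at 12 h and near it at 24 h.

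**Figure D1:**
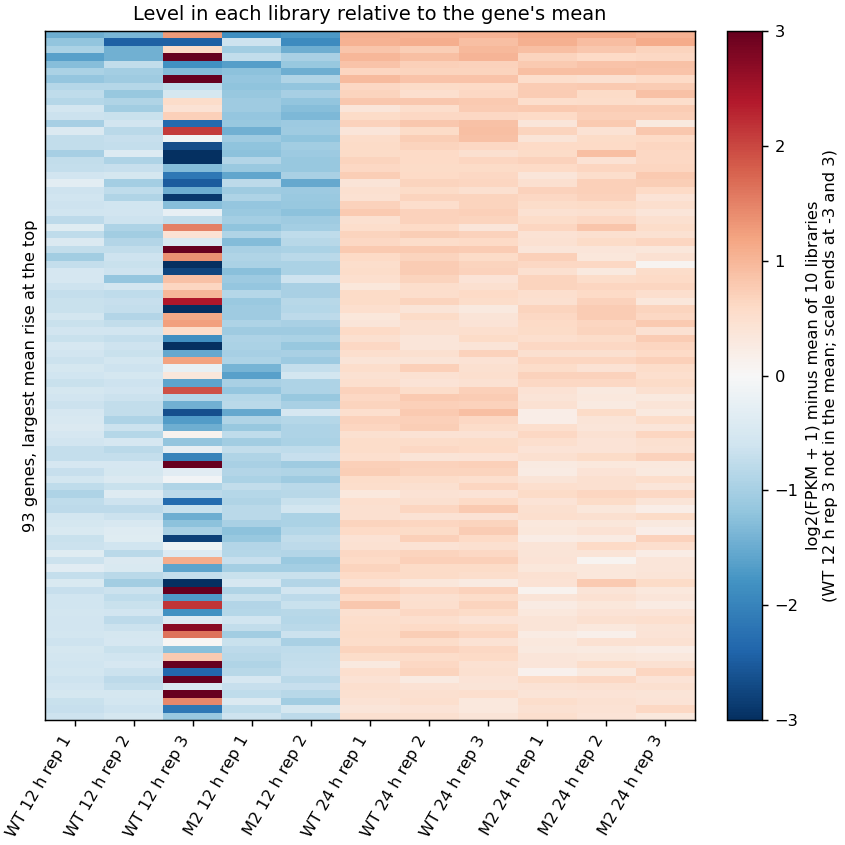
Each row is 1 of the 93 genes and each column a library, and the colour is log2(FPKM + 1) minus the gene's mean over the 10 libraries used to choose the genes, with the scale ending at -3 and 3. The 12 h libraries are blue and the 24 h libraries orange in both lines, and WT 12 h replicate 3 holds both strongly raised and strongly lowered values.

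The change of the group mean ranged from 2.03-fold to 14.3-fold in WT, with a median of 2.48-fold, and from 2.04-fold to 8.01-fold in M2, with a median of 3.05-fold. In limma's fit of log2(FPKM + 1) over the 10 libraries the median change was 1.22 in WT and 1.46 in M2, with a median standard error (SE) of 0.09 per gene. Over all genes of at least 5 FPKM the fitted medians were 0.01 and 0.03. At this level 331 genes (3.57%) in WT and 776 genes (8.37%) in M2 were at least 2-fold higher at 24 h on the scale of the choice. Changes of at least 2 in L were uncommon: 5 of the 93 genes reached it in WT, 5 in M2 and 3 in both lines.

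The 12 h and 24 h libraries of the choice did not overlap. In all 93 genes, every 24 h library lay above both 12 h libraries in WT and in M2, which held for 31.0% of all genes of at least 5 FPKM, for 40.3% in WT and for 40.9% in M2. The lowest 24 h library was at least 2 times the highest 12 h library in 78 of the 93 genes in WT (2.74% of all genes of at least 5 FPKM) and in 85 in M2 (6.97% of all). The smallest such ratios were 1.65 in WT and 1.62 in M2. The choice had already set the means of these same libraries at least 2-fold apart. The counts largely follow from that, and nothing is read from how far they lie from the shares over all genes. Replicate SDs of log2(FPKM + 1), which the choice did not use, had medians over the 93 genes of 0.07 in WT and 0.12 in M2 at 12 h, and 0.06 and 0.08 at 24 h. Over all genes of at least 5 FPKM these medians were 0.06, 0.07, 0.05 and 0.06 in the same order.

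**Figure D2:**
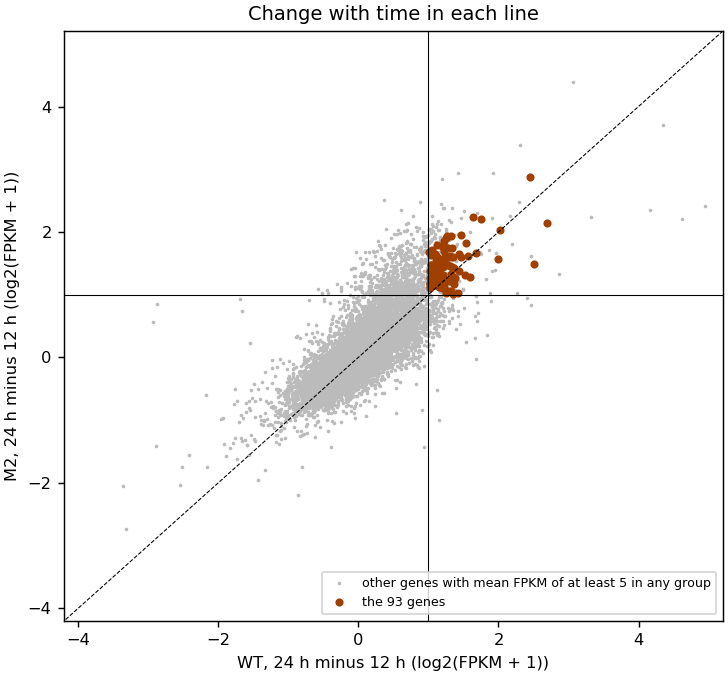
Each point is a gene with a mean of at least 5 FPKM in any group, placed by its change from 12 h to 24 h in L in WT (horizontal axis) and in M2 (vertical axis), with the 93 genes in brown, thin lines at 1 and the dashed line at equal changes. The 93 genes fill the corner past 1 in both lines, and 68 of them lie above the dashed line.

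Named by the largest mean change over both lines, scaffold00214.g6090 had 38.1 and 40.4 FPKM in WT at 12 h and 223, 219 and 217 FPKM in WT at 24 h. In M2 it had 29.1 and 31.4 FPKM at 12 h and 230, 230 and 222 FPKM at 24 h. Both lines reached nearly the same level at 24 h, far above every 12 h library of the choice. The fitted log2 change was 2.45 (SE 0.04) in WT and 2.87 (SE 0.04) in M2.

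The second gene by this measure, scaffold00095.g3423, was close to the limit of detection at 12 h, with 1.40 and 0 FPKM in WT and 2.58 and 0.474 FPKM in M2. At 24 h it had 10.2, 10.7 and 9.18 FPKM in WT and 10.4, 9.43 and 10.8 FPKM in M2. The 24 h libraries of both lines overlapped with each other and lay well above all 12 h libraries. Its fitted changes of 2.83 in WT and 2.29 in M2 each had an SE of 0.36, the highest SE of the set.

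**Figure D3:**
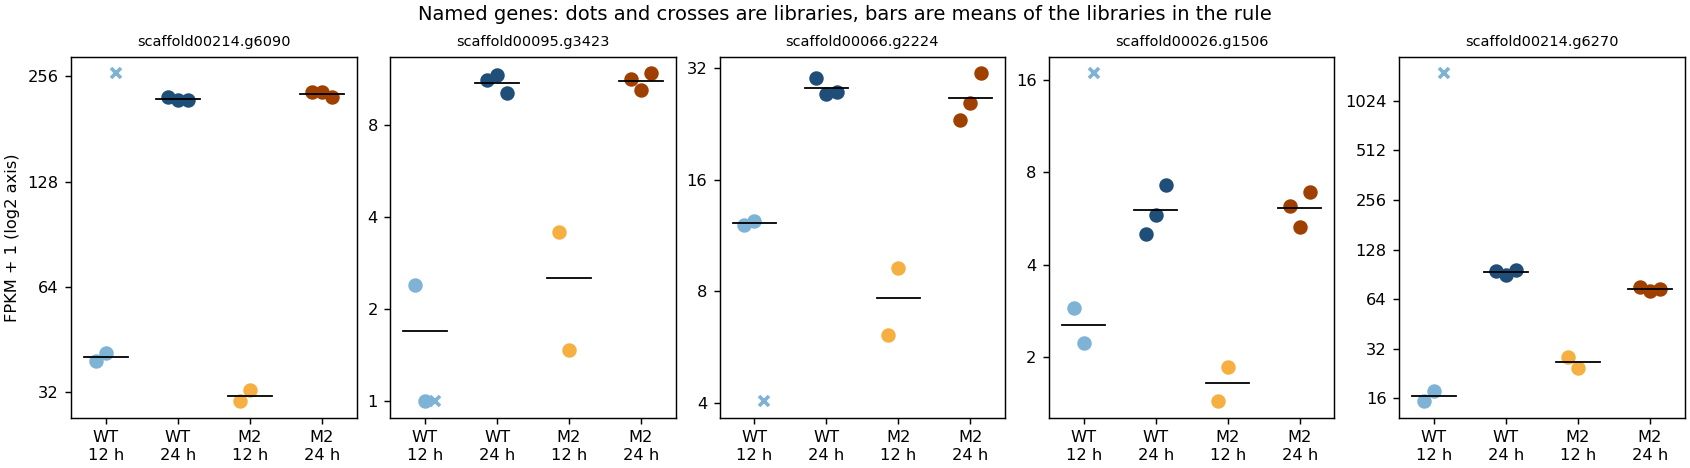
FPKM + 1 on a log2 axis for the 5 named genes, with a dot for each library, a cross for WT 12 h replicate 3 and a bar at the mean of the libraries used in the choice. Within each line the 24 h dots lie above the 12 h dots, and the cross lies above the WT 24 h dots in 3 of the 5 genes and below the other WT 12 h dots in scaffold00066.g2224.

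The set spans low, middle and high expression. At 24 h, 17 genes had a mean under 10 FPKM over both lines, 63 had 10 to 100, 9 had 100 to 1000 and 4 had 1000 or more. The median change of the 17 low genes was 2.90-fold in WT and 3.53-fold in M2. For the 63 genes of middle level it was 2.43-fold and 2.89-fold, and for the 13 genes of 100 FPKM or more it was 2.40-fold and 3.10-fold. The filter admits a low gene through its 24 h level alone. The choice was made on L, which adds 1 to the mean, so a low gene needed a larger fold change to pass. The lowest change in the low group was 2.35-fold in WT and 2.48-fold in M2. It was 2.03-fold and 2.04-fold in the middle group, and the same in the group of 100 FPKM or more. Nothing is therefore read from the larger median changes of the low genes. The 5 most abundant genes at 24 h carried most of the RNA of the set: they held 64.4% of its summed mean FPKM in WT and 62.2% in M2 at 24 h, and 66.9% and 65.1% at 12 h. The highest group mean was 2352 FPKM in WT at 24 h, against 1014 in WT at 12 h, and the same gene had 1769 and 709 FPKM in M2.

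In these genes M2 was mostly a little below WT at 12 h and close to it at 24 h. The fitted M2 minus WT difference over the 93 genes had a median of -0.27 at 12 h (range -0.71 to 0.67, median SE 0.10) and of -0.07 at 24 h (range -0.43 to 0.30, median SE 0.08). Over all genes of at least 5 FPKM the fitted medians were -0.04 at 12 h and 0.01 at 24 h. By group means 83 of the 93 genes were lower in M2 at 12 h and 57 at 24 h, or 78 and 54 after median-of-ratios scaling. The share of all genes lower in M2 by group means was not counted. At 24 h the range was fixed by the bounds of the choice on both sides, and at 12 h on the lower side only. Both M2 libraries lay below both WT libraries at 12 h in 60 genes (41.6% of all genes of at least 5 FPKM) and above them in 2 genes (32.6% of all). At 24 h all M2 libraries lay below all WT libraries in 32 genes (32.9% of all) and above them in 14 (34.5% of all). The choice used these contrasts, and nothing is read from the medians, counts or shares.

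The median of the M2 time change minus the WT time change in L was 0.21 over the 93 genes, from -1.02 to 0.68, and 0.05 over all genes of at least 5 FPKM. The 2 changes differed by more than 0.5 in favour of M2 in 17 genes and in favour of WT in 2. The choice holds the 24 h difference within narrow bounds, which largely fixes that a gene lower in M2 at 12 h has the larger time change in M2, and the next values only describe this. In the 41 genes with M2 minus WT under -0.3 at 12 h, the median change was 2.44-fold in WT and 3.45-fold in M2, and at 24 h the lines were nearly level, at a median difference of -0.06. In the 50 genes within 0.3 of each other at 12 h, the median changes were 2.55-fold in WT and 2.70-fold in M2. By group means, 51 genes were lower in M2 at both times, 32 were lower at 12 h and higher at 24 h, 6 were higher at 12 h and lower at 24 h, and 4 were higher at both times.

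**Figure D4:**
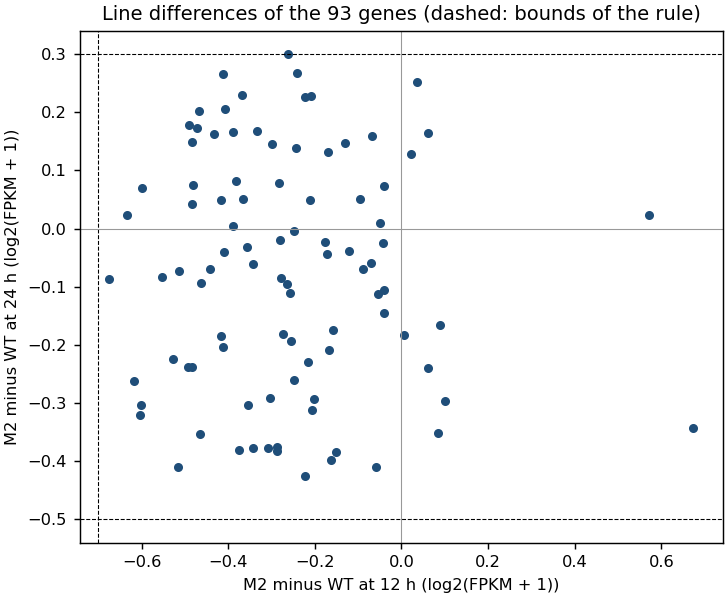
Each point is 1 of the 93 genes, placed by M2 minus WT in L at 12 h (horizontal axis) and at 24 h (vertical axis), with dashed lines at the bounds of the choice. Most points lie left of 0, and 2 genes lie right of 0.3.

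The lowest M2 level relative to WT at 12 h was in scaffold00066.g2224, with 11.1 and 11.4 FPKM in WT and 5.10 and 8.24 FPKM in M2. At 24 h it had 29.2, 26.2 and 26.6 FPKM in WT and 22.2, 24.8 and 30.0 FPKM in M2. The lines were apart at 12 h and overlapped at 24 h. The fitted M2 minus WT difference was -0.71 (SE 0.17) at 12 h.

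The next lowest was scaffold00026.g1506, a gene of low level, with 1.88 and 1.21 FPKM in WT and 0.434 and 0.850 FPKM in M2 at 12 h. At 24 h the values were 4.03, 4.79 and 6.30 FPKM in WT and 5.23, 4.31 and 5.89 FPKM in M2, which overlapped. The fitted difference at 12 h was -0.63 (SE 0.22).

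The pair above 0.3 went the other way. In scaffold00214.g6270, WT had 14.4 and 16.8 FPKM and M2 had 27.6 and 23.3 FPKM at 12 h. At 24 h WT had 94.1, 88.9 and 95.5 FPKM and M2 had 75.3, 71.1 and 72.6 FPKM. The groups did not overlap at either time, and M2 was the higher line at 12 h and the lower at 24 h. The fitted log2 change with time was 2.50 in WT and 1.49 in M2 (SE 0.08 each). The other gene above 0.3 was scaffold00095.g3423, whose M2 and WT libraries overlapped at 12 h (fitted difference 0.57, SE 0.40).

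WT 12 h replicate 3 is the only distinct library that the choice did not use, and it scattered widely over these genes. It was at least 2-fold below the WT 24 h mean in 50 of the 93 genes (31.5% of all genes of at least 5 FPKM), and at least 2-fold above it in 15 (13.8% of all). It lay below every WT 24 h library in 64 genes (62.1% of all) and above every one in 27 (34.3% of all). As shares of the 93 genes these counts are 53.8%, 16.1%, 68.8% and 29.0%, so only the first lies far from the background, and the WT 24 h values in it were used in the choice. All 3 WT 12 h libraries lay below all WT 24 h libraries in the same 64 genes, against 22.8% of all genes of at least 5 FPKM, where the choice had already set the first 2 libraries low. The median difference of the WT 24 h mean to this library was 1.14 in L, with quartiles of -0.24 and 2.24, against 0.43 over all genes of at least 5 FPKM. A single library allows no test.

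Set against WT 12 h replicates 1 and 2, replicate 3 was at least 4-fold higher in 18 of the 93 genes (7.57% of all genes of at least 5 FPKM) and at least 4-fold lower in 10 (11.9% of all). The mean of replicates 1 and 2 was itself chosen to be low. In scaffold00214.g6270 replicate 3 had 1499 FPKM, above every other library, and in scaffold00214.g6090 it had 260 FPKM, above the 24 h libraries. Conversely, 15 of the 93 genes (16.1%) were listed at 0 in it, against 3.74% of all genes of at least 5 FPKM. Those 15 had means of 0.70 to 15.7 FPKM in replicates 1 and 2, with a median of 3.59 FPKM. These shares at 0 are not matched for level. The median in WT at 12 h was 9.26 FPKM over the 93 genes and 26.5 FPKM over all genes of at least 5 FPKM. The 93 genes held 6.58% of the FPKM sum of this library, and 69.5% of that share lay in its 2 highest members, named after their values were seen. Scaffold00140.g4815 had 24102 FPKM in replicate 3, against 706 and 703 FPKM in replicates 1 and 2 and 1421 to 1441 FPKM in WT at 24 h. Scaffold00336.g9678 had 11636 FPKM, against 1017 and 1012 FPKM, and 2318 to 2377 FPKM in WT at 24 h.

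**Figure D5:**
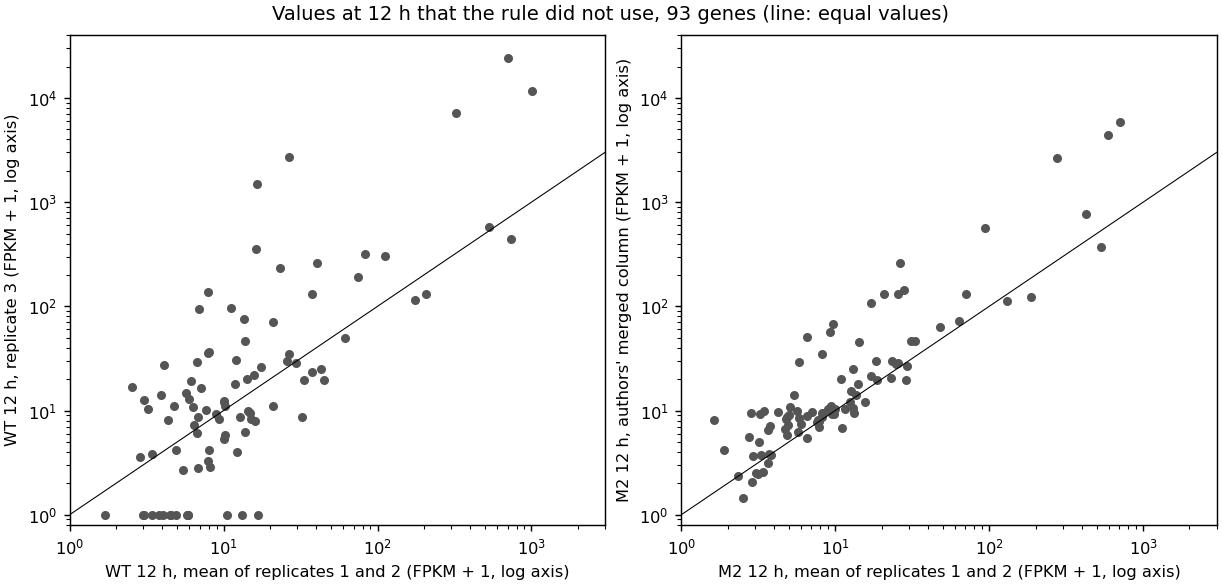
Each point is 1 of the 93 genes, with FPKM + 1 on log axes, and the line marks equal values. On the left, WT 12 h replicate 3 is set against the mean of replicates 1 and 2, with 15 genes at 0 along the bottom. On the right, the authors' merged M2 12 h column is set against the mean of M2 12 h replicates 1 and 2, with most points on or above the line.

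By gene number, the 93 genes were spread over 43 of 283 scaffolds. On 20 scaffolds there was 1 such gene, and the most on a scaffold was 7, on scaffold00026, which has 473 genes of at least 5 FPKM. Next were scaffold00080 with 6 of 280 and scaffold00295 with 5 of 364. Gene numbers next to each other were held by 6 of the 93 genes, a pair each on scaffold00007, scaffold00214 and scaffold00328. Counted over the 171 genes of any level whose number is next to that of a member, 3.51% were members, against 0.95% of all 9756 genes. Whether adjacent numbers are adjacent on the chromosome is not given in the sources used here.

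The next and previous numbers also gave 165 genes that were not members, of which 157 had at least 5 FPKM in any group. Of these, 12 (7.64%) were at least 2-fold higher at 24 h in WT, against 2.59% of all 9178 non-members of at least 5 FPKM, and 27 (17.2%) in M2, against 7.44%. Their median time change in L was 0.09 in WT and 0.11 in M2, and over all genes of at least 5 FPKM, members included, it was 0.01 and 0.03. The libraries were made without strand information, so reads of overlapping neighbours cannot be told apart. The part of such reads in these values was not tested.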

How the data were processed

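Polyadenylated RNA was sequenced as read pairs without strand information, per the labels' protocols. The authors deposited FPKM values, with a table for each of the 4 groups and merged group values. Per the submitters' processing notes, TopHat2 2.0.4 and Cufflinks 2.0.2 were used. No genome build or annotation, and no statement on a joint normalization of the tables, is given in the sources used here. A difference between tables and one between groups therefore cannot be told apart. FPKM is not a count, and the depth behind each value is unknown. The M2 24 h headers write MT for M2. Left out was 1 value column, the M2 12 h column that repeats the header of replicate 2.

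The members and all counts were chosen with earlier results of these data known. Values were used as deposited. Log2 changes and SEs came from limma 3.58.1 in R 4.3.3, a mean per group with an intensity trend and no replicate block, on log2(FPKM + 1) of the 9579 genes with a mean of at least 1 FPKM over the 10 libraries of the choice. The fit gives means of log2 values, and the choice used the log2 of means, so they differ slightly. The pseudocount of 1 lowers the changes of low genes. No p-values were computed, since the choice used every contrast. Scripts were tested on simulated data. Named were the 2 genes with the largest mean time change and the 2 highest and 2 lowest in M2 minus WT at 12 h; 1 gene is in both groups. The other values were computed with Python 3.11.15, numpy 2.4.6, scipy 1.17.1 and pandas 2.3.3, and figures were made with matplotlib 3.10.9.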

Additional observations from a re-analysis of the deposited data

Results flagged for a closer look

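The M2 12 h column of the authors' merged group values, which the choice did not use, departed from its replicate columns, and not only in these genes. For M2 12 h replicate 3 no distinct values were available, and its part in the merged column was not tested. Over the 93 genes the merged M2 12 h column departed by a median of 101% from the least-squares weighted sum of the M2 12 h replicate columns, and by 28.0% over all genes. For the other merged groups the median departure over the 93 genes was 0.024% (WT 12 h), 0.00012% (WT 24 h) and 0.00014% (M2 24 h). Relative to the mean of M2 12 h replicates 1 and 2, the merged value was higher in 70 of the 93 genes (32.0% of all genes of at least 5 FPKM) and at least 2-fold higher in 24 (13.9% of all). The median difference in log2(FPKM + 1) was 0.34 over the 93 genes and -0.39 over all genes of at least 5 FPKM. The mean of M2 12 h replicates 1 and 2 was itself chosen to be low in the 93 genes. Nothing is therefore read from how far these values of the 93 genes lie from those over all genes. All 18 members at least 4-fold higher in WT 12 h replicate 3 lay above that mean in the merged M2 column (98.3% of all genes so raised), 14 of them at least 2-fold (89.0% of all genes so raised). Of the 10 members at least 4-fold lower in replicate 3, 9 also lay above that mean (7.95% of all genes so lowered). Only 1 of them was at least 2-fold above it (1.90% of all genes so lowered). The median difference of the merged M2 column to that mean was 2.48 in log2(FPKM + 1) over the 18 members and 0.27 over the 10. Scaffold00140.g4815 had 4402 FPKM in the merged M2 12 h column, against 599 and 574 FPKM in replicates 1 and 2. The deviations of the merged M2 12 h column and of WT 12 h replicate 3, each from replicates 1 and 2 of its own group, correlated across the 93 genes at r = 0.72, and at r = 0.71 across all genes of at least 5 FPKM. With the merged columns, 55 of the 93 genes were at least 2-fold higher at 24 h in M2 (6.70% of all genes of at least 5 FPKM) and 63 in WT (8.69% of all). In M2, 17 of the 93 genes were lower at 24 h (27.9% of all) and in WT 13 (29.5% of all). The median time changes over all genes of at least 5 FPKM were 0.37 in M2 and 0.29 in WT, against 1.09 and 1.40 over the 93 genes. Within the departures given above, the merged 24 h columns were weighted sums of libraries used in the choice. The merged WT 12 h column was one of columns that include replicates 1 and 2, and replicate 3 had a part in it too. In scaffold00140.g4815 it held 8585 FPKM, against 706 and 703 FPKM in WT 12 h replicates 1 and 2 and 24102 FPKM in replicate 3. These time changes therefore reuse values that chose the genes, and nothing is read from them.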

How the results depend on the processing

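The rule found 93 genes, 40 with a pseudocount of 5 (33 of them among the 93) and 113 with 0.1 (88 of them). The authors' merged columns in place of the means gave 271 (48 of them), and including WT 12 h replicate 3 gave 108 (56 of them); the causes were not tested. Other scalings gave 92 and 94, a minimum of 10 FPKM gave 78, and no minimum gave 103. Leaving out each library in turn gave 87 to 107. With a pseudocount of 5 the median time changes fell to 0.94 in WT and 1.05 in M2, as this choice shrinks low genes by construction. Left-out libraries gave medians of 1.18 to 1.27 in WT and 1.39 to 1.48 in M2. Including WT 12 h replicate 3 left 64 of the 93 genes with no overlap between times in both lines. With a pseudocount of 0.1 these medians were 1.31 in WT and 1.58 in M2, moves smaller than the median SD of a 24 h minus 12 h difference of single libraries (0.12 and 0.16) but above some of the SDs within a group. Under the other alternatives the medians moved by less than that SD of a difference, and no other count moved by more than 1.5 times.

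With the replicate number as a block, the medians were 1.22 in WT, 1.46 in M2, and -0.27 and -0.07 between the lines at 12 h and 24 h. Deviations of same-numbered libraries correlated at -0.03 to 0.01 between the lines and at -0.01 to 0.01 between the times within a line. The numbers were therefore not taken to pair the libraries. At 12 h, with 2 libraries per line, replicates 1 and 2 gave the same value between the lines, -0.03.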
